A study of Mus musculus with 18 samples.

Results

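The comparison described here set 5 arrays of AML12 cells treated with 2 mM octanoate against 5 arrays of AML12 cells given phosphate-buffered saline (PBS), both for 24 h. These are 10 of the 18 arrays of the series, and they were chosen by the treatment in the labels. The remaining arrays held 1 mM (n = 4) and 5 mM octanoate (n = 4) and entered the fit, where they share the estimate of spread. Every group was plated at the same density (350000 cells a well) in DMEM that held 10% serum, so the control cells also had the lipid and glucose of that medium. AML12 is an immortalized mouse hepatocyte line, derived from a mouse that carries a human transforming growth factor alpha transgene, so every group shares that background. The study's subject is whether carbon from lipid ends up in acetylated histones. RNA was hybridised in 1 colour to Illumina mouse BeadChips, slides with bead-bound probes. Whether replicates came from separate cultures is not in the labels. The p-values therefore reflect the spread among these samples alone, and that spread may be technical.

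Octanoate is a medium-chain fatty acid. It enters mitochondria largely without the carnitine shuttle that long-chain fatty acids need, is activated to its CoA ester by medium-chain acyl-CoA synthetases, and is cut by beta-oxidation to acetyl-CoA. In hepatocytes acetyl-CoA feeds the tricarboxylic acid cycle, ketone bodies and, through citrate or acetate, the pool outside mitochondria that supplies lipid synthesis and protein acetylation. Hepatocytes sense fatty acids through the nuclear receptor PPAR alpha, which drives genes of their oxidation, and sterols through the SREBP2, SCAP and INSIG proteins, which set the level of the cholesterol synthesis enzymes.

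Levels are log2 of the normalized signal, given as the mean ± SD of 5 arrays, and differences are 2 mM minus PBS on the same scale, with the standard error (SE) of the fit. A gene was called where limma's adjusted p was under 0.05, and it was represented by its brightest tested probe. Other probes are given for some genes only, and they can differ in size or direction. Of 45281 probes, 20536 (45.4%) were detected on at least 4 of the 18 arrays and were tested. They stood for 10605 named genes. Arrays detected 17446 to 18483 probes with PBS and 17910 to 18341 at 2 mM. Replicates correlated at 0.9924 to 0.9945 within PBS and 0.9915 to 0.9939 within 2 mM. Precision is limited by how many arrays there are, and the median SE of a difference was 0.108.

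The PBS arrays shared BeadChip 1 with a single octanoate array, 1 mM replicate 1. The 2 mM arrays were split, with replicates 1 to 3 on BeadChip 2 beside the other 1 mM arrays and replicates 4 and 5 on BeadChip 3 beside the 5 mM arrays. No BeadChip held both PBS and 2 mM, and a fit with BeadChip as a term links them through 1 mM replicate 1 alone. On the third principal component, which held 3.62% of the variance, that array lay at 12.9, and the other 1 mM arrays at −2.03, −2.05 and −29.2. On the first principal component, which held 57.7%, it lay at −13.4, within the range of the others (−14.5 to −11.8). BeadChip values rest on that array alone, and why it stood apart on the third component was not tested. In the fit with the BeadChip term 2134 probes were called against 7615 without the term, and 1863 probes were among both sets with the same sign. Of the 7615 probes, 7237 (95%) kept their sign. Between the 2 mM arrays of BeadChips 2 and 3, limma called 0 of 20536 probes (0%), with 1315 (6.4%) at an unadjusted p under 0.05. That test rests on few arrays and leaves out BeadChip 1, so it cannot address a difference between BeadChip 1 and the others. Apart from the link through 1 mM replicate 1, effects of 2 mM octanoate and of BeadChip cannot be told apart. Where the BeadChip term ended the call of a gene named here, its value is given as the BeadChip value. A lost call does not show that a difference is absent, because a fit linked through 1 array has less power.

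The labelled cell type was checked against marker genes. Of 18 hepatocyte markers, Ttr, Apob, Trf, Hnf4a, Serpina1a, Ass1, Krt8 and Krt18 were detected on all 18 arrays, and Alb, Fgb, Cps1, Tat, Tdo2 and Cyp2e1 on none. The summed signal of the hepatocyte markers was 28900 to 31700 with PBS and 33600 to 35800 at 2 mM, with 5 markers called higher and 1 lower. The sum rests mostly on Krt8 (13.71 with PBS, 13.58 at 2 mM), Krt18 (13.2 and 12.87) and Trf (12.15 and 13.06). Krt18 was the marker called lower (−0.33), and Trf was among those called higher (0.91). For the 9 biliary and progenitor markers with a probe the sums were 5070 to 5350 and 5270 to 6130, with the keratins Krt7 (−0.77) and Krt19 (−0.21) called lower and Sox9 (0.23) higher. Sums of stellate cell markers (85 to 111 with PBS, 94.9 to 113 at 2 mM), endothelial markers (2140 to 2590 and 1850 to 2400, from Stab1) and leukocyte markers (43.2 to 56.4 and 37.9 to 55) overlapped between the groups. Whether a change per cell or a change in the mix of cell states lay behind a difference in these bulk samples cannot be told apart.

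At 2 mM octanoate 4330 of 10605 genes were called (40.8%), 2349 higher (22.1%) and 1981 lower (18.7%), most of them by little. Among probes, 7615 were called (37.1%), 3743 higher (18.2%) and 3872 lower (18.9%), and 74.6% of them differed by less than 1.5-fold, with a median absolute difference of 0.43. Only 294 probes were at least 2-fold higher (1.43%) and 66 at least 2-fold lower (0.321%), together 1.75%, or 212 genes (2%) and 33 genes (0.311%). Of 57 gene lists, plasma proteins and carriers (1.29), PPAR alpha targets (1.03) and glutathione S-transferases (0.97) had the highest medians. DNA replication (−0.68), cholesterol synthesis enzymes (−0.64) and ribosome biogenesis (−0.46) had the lowest. Arrays of the groups did not overlap for 3197 genes (30.1%).

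**Figure D1:**
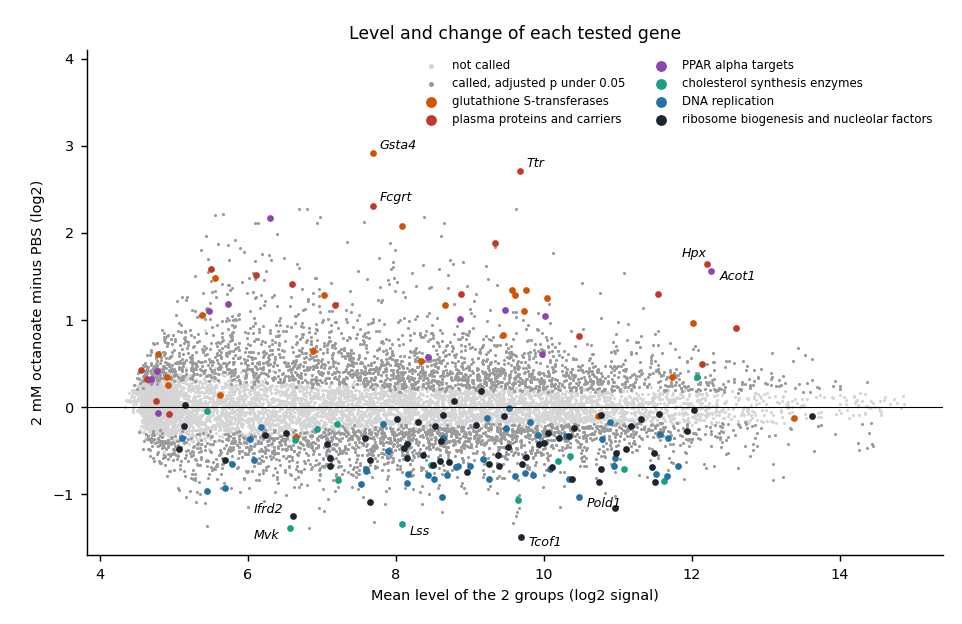
Difference between 2 mM octanoate and PBS (vertical axis, log2) against the mean level of the 2 groups (horizontal axis, log2 signal) for each of 10605 genes, with 6 gene lists in colour. Rises reach 2.92 (Gsta4), further from 0 than the deepest fall, −1.49 (Tcof1).

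Gsta4, an enzyme that joins glutathione to aldehydes from oxidized lipid, had the largest rise. Its level was 6.03, 6.1, 6.25, 6.47 and 6.29 on PBS replicates 1 to 5 and 9.19, 9.19, 9.15, 9.17 and 9.05 on 2 mM replicates 1 to 5. The groups lay far apart, and the 2 mM arrays were tighter (9.15 ± 0.06) than the PBS arrays (6.23 ± 0.17). The difference was 2.92 ± 0.09 (SE), or 7.57-fold (adjusted p = 2.04e-14). Ttr, which carries thyroxine and retinol-binding protein in plasma, stood at 8.26, 8.25, 8.25, 8.35 and 8.48 with PBS and at 10.9, 10.78, 11.06, 11.29 and 11.13 at 2 mM. Replicates 4 and 5, on BeadChip 3, were its highest 2 mM arrays, and all 5 were above every PBS array. It rose 6.56-fold (2.71 ± 0.09, adjusted p = 9.75e-14).

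Fcgrt, the receptor that returns albumin and immunoglobulin G to the circulation, ran from 6.4 to 6.59 with PBS and from 8.7 to 8.98 at 2 mM (2.30 ± 0.08, 4.94-fold). Aldh1a1, a retinaldehyde dehydrogenase, ran from 8.4 to 8.58 and from 10.65 to 10.84 (2.27 ± 0.07, 4.84-fold). Apoe, the ligand through which lipoprotein remnants are taken up, ran from 5.13 to 5.74 and from 7.68 to 7.97 (2.27 ± 0.15, 4.84-fold), with PBS replicate 4 the lowest array. None of the 3 genes overlapped between groups. Next came Apoc4 (2.27), an apolipoprotein, Ddc (2.21), which decarboxylates aromatic amino acids, Fbxo2 (2.19), a ubiquitin ligase subunit that binds glycoproteins, Ffar4 (2.18), a cell surface receptor for long-chain fatty acids, and Cyp4a12a (2.17), a fatty acid omega-hydroxylase. The calcium channel Cacna1h (2.13), Prune2 (2.12), Zcchc18 (2.11), the cytochrome P450 Cyp2c67 (2.11), the adhesion protein Flrt1 (2.11), the glutathione S-transferase Gstt1 (2.08), the hydroxyproline dehydrogenase Prodh2 (1.99), the actin-binding Synpo (1.97), the pump regulator Fxyd6 (1.92), the transcription factor Sox5 (1.90) and the alpha-1-antitrypsin genes Serpina1d (1.88) and Serpina1b (1.88) followed. Some of these were dim with PBS, where Ddc was detected on 1 array, Fxyd6 on 3 and Zcchc18 on 4, so their differences are less sure in size. The size of a rise also depends on the processing. Across the alternatives described below, Gsta4 ran from 1.55 to 3.02, Ttr from 2.24 to 2.89 and Apoe from 0.81 to 2.96. Ddc ran from 0.48 to 2.29 and Cyp4a12a from 0.63 to 2.73. Serpina1 genes are near-identical copies, so their separate values are uncertain. Flrt1 was smaller on its other tested probe (1.18), and the probes of Sox5 ran from 0.79 to 2.06.

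Some genes were not detected on any PBS array and on all 5 arrays at 2 mM. There were 40 such genes, against 3 detected on all PBS arrays and none at 2 mM. Of the 40, 39 were called, beside 40.8% of all genes, but choosing genes by detection itself favours a call. For genes of both kinds a fold is a bound, the mean of the brighter group over that of the dim group. In the dim group each array took the lowest detected signal or the probe's own, whichever was more. The bounds hold only for the background correction and offset used here. Across the alternatives described below, log2 differences were as low as 0.46 for Keg1 and 0.38 for C4a and Aldh1a7. The lowest were 0.31 for Pdzk1, 0.34 for Acot4 and 0.26 for Frmd5. Keg1 was at least 3.49-fold higher, the complement gene C4a at least 3.20-fold, the aldehyde dehydrogenase Aldh1a7 at least 2.93-fold and Pdzk1, a scaffold protein of the cell membrane, at least 2.74-fold. The peroxisomal thioesterase Acot4 was at least 2.66-fold higher and Frmd5 at least 2.27-fold. Keg1 read 6.66, 6.47, 6.93, 6.68 and 6.58 on the 2 mM arrays. In the other direction the bounds were at least 1.31-fold for Myl4, at least 1.25-fold for the histone gene H2bc18 and at least 1.15-fold for Plet1. All 3 lost their calls with the BeadChip term, with adjusted p = 0.456, 0.988 and 0.203. A second probe of Frmd5 (0.03) and of Pdzk1 (0.21) differed far less. C4a and its neighbour C4b are near-identical copies that a probe may not tell apart.

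Tcof1, which helps make ribosomal RNA in the nucleolus, had the deepest fall. It read 10.42, 10.44, 10.42, 10.5 and 10.44 on the PBS arrays and 8.82, 9.02, 9.16, 9.14 and 8.62 at 2 mM. PBS arrays agreed within 0.03 (SD) while 2 mM arrays spread over 0.23, with replicates 1 and 5 lowest, and the groups did not overlap. It fell by 1.49 on the log2 scale (SE 0.10; 2.81-fold, adjusted p = 5.58e-10). Mvk, mevalonate kinase of sterol synthesis, read 7.21, 7.34, 7.06, 7.37 and 7.31 with PBS and 5.85, 5.63, 5.95, 5.95 and 5.98 at 2 mM, a fall of 2.61-fold (−1.39 ± 0.12, adjusted p = 3.51e-08). Every 2 mM array lay more than 1 log2 unit under every PBS array.

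Further falls were in the secreted signal Wnt7a (−1.39 ± 0.14), the sterol cyclase Lss (−1.34 ± 0.12), the procollagen processing enhancer Pcolce2 (−1.32), Ifrd2 (−1.25), the RNA-processing factor Zc3h18 (−1.25), Armc6 (−1.21), the proteasome-associated stress protein Zfand2a (−1.20), Trim47 (−1.19), the matrix crosslinking oxidase Loxl4 (−1.16) and Mybbp1a (−1.16), a nucleolar protein that binds the transcription factor MYB. Lyar (−1.11), a nucleolar regulator, the chemokine Cxcl10 (−1.09), Rrp9 (−1.08), a processing factor of ribosomal RNA, the arginine deiminase Padi1 (−1.07), the sterol demethylase Cyp51 (−1.07) and the RNA exosome nuclease Dis3 (−1.05) also fell. The BeadChip term ended the calls of Il24, a cytokine (−1.36, BeadChip value −0.69, adjusted p = 0.231), Prrc2c (−1.33, BeadChip value −1.19, adjusted p = 0.107), Kdm8 (−1.16, BeadChip value −0.83, adjusted p = 0.0827), Il18rap (−1.15, BeadChip value −0.48, adjusted p = 0.282) and Prrg3 (−1.10, BeadChip value −0.94, adjusted p = 0.0984). At 2 mM Il24 and Prrg3 were each detected on 1 array, so the size of their fall is unsure. Kdm8 and Il18rap each had another tested probe near 0 (0.06 and 0.11), and so did Lss (−0.03). The probes of Prrc2c ran from −1.36 to −0.26, with 4 of 5 called, and those of Loxl4 from −1.16 to −0.38.

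**Figure D2:**
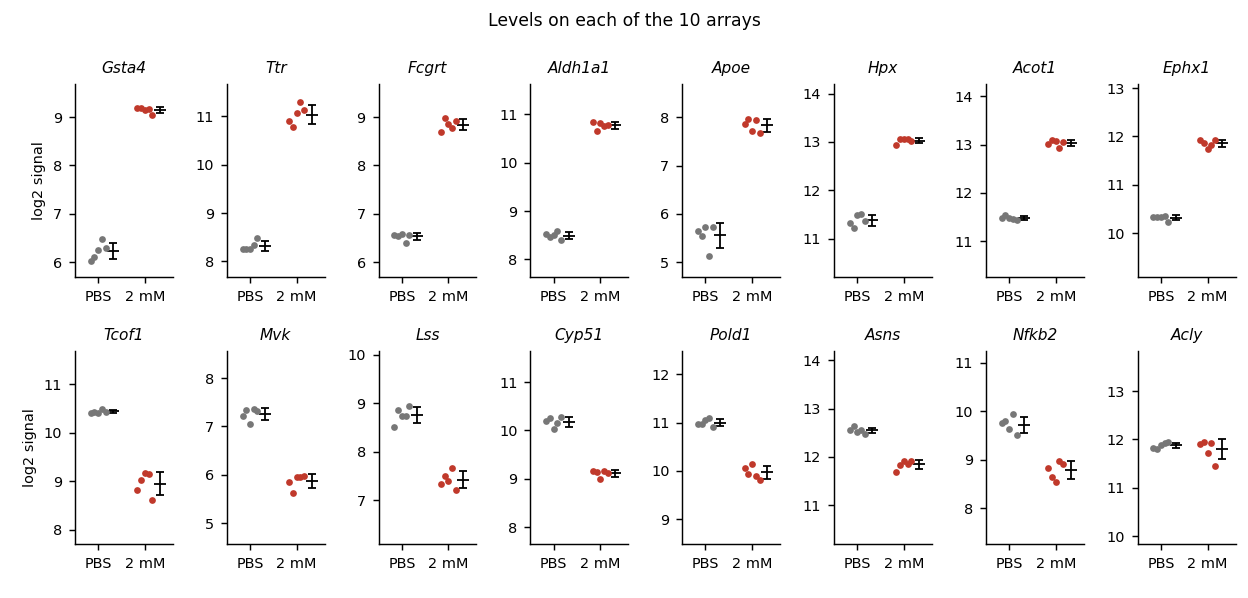
Level of 16 genes (log2 signal) on each of the 10 arrays, with grey points for PBS and red points for 2 mM octanoate in replicate order and a bar for the mean and SD (n = 5). All vertical axes span 4 log2 units, and Acly is the only gene shown whose groups overlap.

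Gene lists covered 57 themes and 1788 genes, of which 1285 were measured. The filter favours a difference in a gene that passed it through 1 group only, so counts over measured members describe them and no more. The median difference over all genes was 0, with 22.1% higher and 18.7% lower, and each list is read against those shares.

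Among genes that take up, activate and burn fatty acids, rises outnumbered falls. Of 24 genes of mitochondrial fatty acid oxidation 22 were measured, and 10 were higher and 0 lower, with a median of 0.18, or 0.05 with the BeadChip term. The carnitine and acylcarnitine exchanger Slc25a20 rose from 8.37 ± 0.12 to 9.38 ± 0.09 (1.01 ± 0.09), the thiolase Acaa2 by 0.85, the electron transfer proteins Etfdh by 0.78 and Etfb by 0.69. Of 3 probes of Etfdh 1 was called, and the lowest was at 0.02. Acadm, the dehydrogenase that acts on medium-chain acyl-CoA and so on the chain length given to these cells, read 10.56 to 10.76 with PBS and 11.15 to 11.36 at 2 mM. Its groups were apart, with a rise of 1.53-fold (0.62 ± 0.07, adjusted p = 1.46e-06). Cpt1a, the entry step for long-chain fatty acids, had 2 probes, and neither passed the detection filter.

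In peroxisomes, which shorten very long and branched chains, 14 of 16 measured genes (22 listed) were higher and 0 lower, with a median of 0.38. The thiolase Acaa1b (1.12) and the oxidase Acox2 (1.12) rose more than 2-fold, and the isomerase Ech1 rose by 0.67. PPAR alpha targets had 11 of 12 measured genes (25 listed) higher and 0 lower, with a median of 1.03, or 0.91 with the BeadChip term. Acot1, which frees long-chain fatty acids from CoA, read 11.48, 11.55, 11.48, 11.45 and 11.43 with PBS and 13.02, 13.09, 13.08, 12.93 and 13.06 at 2 mM. Both groups were tight (SD 0.04 and 0.06), and the rise was 2.95-fold (1.56 ± 0.06, adjusted p = 9.64e-13). Angptl4, a secreted inhibitor of lipoprotein lipase, rose by 1.05 and Pdk4, the kinase that turns off pyruvate dehydrogenase, by 1.18 (5.14 ± 0.32, detected on 4 arrays, to 6.32 ± 0.14).

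Of 11 measured acyl-CoA thioesterases 6 were higher and 2 lower, led by Acot4, Acot1, Acot6 (1.14) and Acot2 (1.10). The probes of Acot2 disagreed, with 1 called lower (−0.46), and a mean of them was not called (0.15, adjusted p = 0.0898). Acot2 and Acot6 were each detected on 3 PBS arrays, and Acot genes are near-identical copies. Of 7 genes listed as medium-chain acyl-CoA synthetases only 3 were measured, and whether each of them acts on octanoate was not tested. Acsf2 rose by 0.56, while Acsf3 (−0.24, adjusted p = 0.161) and Acsm3 (−0.16, adjusted p = 0.623) did not pass. Without 2 mM replicate 5 Acsf3 was called (−0.35) and Acsm3 stood at 0.03. Among long-chain synthetases, carriers and receptors 5 of 12 were higher and 1 lower. Besides Ffar4 these were Acsl4 (0.40, BeadChip value 0.64, adjusted p = 0.0884), the acyl-CoA binding protein Dbi (0.39, BeadChip value 0.42, adjusted p = 0.0827) and the carrier Slc27a1 (0.68), whose sign turned with the BeadChip term (−0.42, adjusted p = 0.366).

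Enzymes of ketone body metabolism moved in both directions, with 3 of 6 higher and 1 lower and a median of 0.26, or 0.11 with the BeadChip term. Bdh2, a hydroxybutyrate dehydrogenase, rose 3.28-fold (6.92 ± 0.12 to 8.63 ± 0.08, 1.71 ± 0.07) and Bdh1, the mitochondrial form, detected on 1 PBS array, by 0.95 (0.26 on its other probe). Aacs, which returns acetoacetate to lipid synthesis in the cytosol, fell 2-fold (−1 ± 0.08), from 9.96 to 10.27 with PBS to 9.03 to 9.31 at 2 mM. The exporter Slc16a6 was at 0.56 (BeadChip value −0.26, adjusted p = 0.485). Lipid droplet and triglyceride genes had 7 of 24 higher and 2 lower with a median of 0.03. Cideb, a droplet fusion protein of hepatocytes, rose 3.12-fold (1.64 ± 0.10), the lysosomal lipase Lipa by 0.60 and the droplet coat protein Plin2 by 0.61, while Plin3 was at −0.57 (BeadChip value −0.48, adjusted p = 0.123). Fatty acid synthesis had 5 of 15 higher and 2 lower with a median of 0.07, and 0.03 where genes not detected in a group took their bound. Scd1 (0.45, BeadChip value 0.29, adjusted p = 0.256), Fads3 (0.39, BeadChip value 0, adjusted p = 0.998) and Tecr (0.35, BeadChip value 0.27, adjusted p = 0.342) were its highest by p, and Elovl6 was at −0.35 (BeadChip value −0.06, adjusted p = 0.855).

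Most measured enzymes of cholesterol synthesis fell. Of 14 measured enzymes (21 listed) 10 were lower and 1 higher, Ebp (0.35), named for the count after its value was seen. The median was −0.64, and −0.71 with the BeadChip term. Besides Mvk and Lss, Cyp51 read 10.19, 10.26, 10.02, 10.16 and 10.28 with PBS and 9.17, 9.13, 8.99, 9.17 and 9.11 at 2 mM (−1.07 ± 0.09, adjusted p = 2.7e-08), and the farnesyl diphosphate synthase Fdps fell by 0.84. No array of either gene overlapped with the other group. The sensing genes split, with 5 of 10 lower and 3 higher. Insig1, which holds the sterol sensor in the endoplasmic reticulum and is itself a target of that system, fell 2.15-fold (8.41 ± 0.22 to 7.31 ± 0.20). Insig2, its partner that is not such a target, rose by 0.58 ± 0.07. The sterol carrier Stard4 (−0.66) and Tmem97 (−0.70) fell, and the transcription factor Srebf2 was at −0.39 (BeadChip value −0.22, adjusted p = 0.533).

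Promoter sequences are shown for the 3 sterol genes of this list that had the smallest adjusted p and a CCAAT box, the motif bound by NF-Y, which works beside the sterol factor. Each run gives the 200 bases before the start of the gene, 5′ to 3′ on the gene's strand, from RefSeq on GRCm38.p6, with matches of CCAAT on either strand in capitals.
Cyp51, chr5:4104698-4104897, minus strand: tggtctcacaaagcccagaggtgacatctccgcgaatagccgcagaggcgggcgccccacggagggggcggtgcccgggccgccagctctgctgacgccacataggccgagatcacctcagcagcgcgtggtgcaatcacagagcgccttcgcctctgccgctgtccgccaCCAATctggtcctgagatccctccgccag
Lss, chr10:76531405-76531604, plus strand: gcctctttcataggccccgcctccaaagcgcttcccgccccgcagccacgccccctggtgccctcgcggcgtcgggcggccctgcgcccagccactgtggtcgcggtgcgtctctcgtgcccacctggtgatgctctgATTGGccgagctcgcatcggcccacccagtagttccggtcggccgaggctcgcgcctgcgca
Mvk, chr5:114444069-114444268, plus strand: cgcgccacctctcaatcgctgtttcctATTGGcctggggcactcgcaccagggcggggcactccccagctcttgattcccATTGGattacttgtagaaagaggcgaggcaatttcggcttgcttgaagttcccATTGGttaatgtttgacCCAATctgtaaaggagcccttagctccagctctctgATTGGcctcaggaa
In the window from 250 bases before to 50 after the start, 12 of 12 cholesterol enzymes with a listed promoter held CCAAT (100%), against 41.1% of 27025 genes. Ebp, which was called higher, was among the 12. Mvk held 5 matches in the 200 bases shown. The core TCACNCCAC of a sterol element was in 0 of 12 windows, against 1.44% of all, which says only that these letters are not there. A match is a description of the sequence, and binding was not measured.

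Of 7 measured genes that could supply acetyl-CoA outside mitochondria 2 were called, both higher. The citrate lyase Acly, which makes acetyl-CoA from exported citrate, read 11.82, 11.81, 11.89, 11.92 and 11.94 with PBS and 11.91, 11.94, 11.72, 11.93 and 11.46 at 2 mM. The groups overlapped, with replicate 5 the lowest, and the difference was −0.08 ± 0.09 (adjusted p = 0.5), or 0 without that replicate. The citrate carrier Slc25a1 was at 0.08 ± 0.10 (adjusted p = 0.538) and the carnitine acetyltransferase Crat at −0.21 ± 0.09 (adjusted p = 0.0743). Crat was called over a mean of its probes (−0.29, adjusted p = 0.0114), without the 3 arrays named with the dose steps (−0.24, adjusted p = 0.0251) and with no background correction (−0.14, adjusted p = 0.0472). Acss2, which makes acetyl-CoA from acetate, rose from 6.46 ± 0.24 to 6.94 ± 0.11 (0.48 ± 0.13, adjusted p = 0.00519), and the malonyl-CoA decarboxylase Mlycd by 0.79. In pyruvate dehydrogenase and its regulators 1 of 11 was higher, Pdk4, and 3 lower, among them the phosphatase Pdp2 (−0.38). The kinase Pdk1 was at −0.55 (BeadChip value −0.35, adjusted p = 0.487).

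The tricarboxylic acid cycle had 2 of 19 higher and 2 lower, with the isocitrate dehydrogenase Idh1 at 0.63 and the aconitase Aco1, both enzymes of the cytosol, at −0.59 (BeadChip value −0.66, adjusted p = 0.122). Glycolysis had 6 of 20 lower and 2 higher, with a median of −0.11, or −0.23 with the BeadChip term. The glucose carrier Slc2a1 read 11.21 to 11.37 with PBS and 10.53 to 10.75 at 2 mM (−0.64 ± 0.08; BeadChip value −0.33, adjusted p = 0.188). The phosphofructokinase isoforms moved apart, with Pfkm, the muscle form, up by 0.54 ± 0.07 and Pfkl, the liver form, down (−0.48 ± 0.07), though Pfkl was at −0.18 and not called over a mean of its probes. Slc37a4, which moves glucose-6-phosphate into the endoplasmic reticulum, was at −0.92 (BeadChip value −1.42, adjusted p = 0.0503). Oxidative phosphorylation had 27 of 70 subunits higher and 9 lower (median 0.12). Ndufs4 (0.63) of complex I rose, and Uqcrh of complex III was at 0.62 (BeadChip value 0.52, adjusted p = 0.0837).

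Proteins that hepatocytes secrete rose together. Of 17 measured plasma proteins and carriers (30 listed) 15 were higher and 0 lower, with a median of 1.29, or 0.90 with the BeadChip term. Hpx, which binds free heme, read 11.33, 11.22, 11.48, 11.5 and 11.37 with PBS and 12.94, 13.06, 13.07, 13.05 and 13.01 at 2 mM. The groups were apart, and the rise was 3.13-fold (1.64 ± 0.08, adjusted p = 2.26e-11). Ambp, the precursor of alpha-1-microglobulin, rose 2.46-fold (1.30 ± 0.07). Alb had a probe that was detected on no array. Apolipoproteins and lipoprotein handling had 8 of 12 higher and 0 lower (median 0.46), with Apoc2, which activates lipoprotein lipase, up by 1.51 and the lipase Lpl by 0.93. Bile acid genes had 5 of 8 higher and 0 lower (median 0.68), led by Cyp27a1, the sterol 27-hydroxylase (1.46), the phospholipid pump Abcb4 (1.34, detected on 2 PBS arrays), the export pump Abcc3 (0.90) and the fibroblast growth factor co-receptor Klb (0.93).

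Hepatocyte transcription factors rose less. Of 17 measured 8 were higher and 1 lower (median 0.20, or 0.15 with bounds), and the BeadChip term ended the calls of all 5 factors named here. Hnf4a was at 0.35 (BeadChip value 0.21, adjusted p = 0.485), Prox1 at 0.70 (BeadChip value 0.64, adjusted p = 0.0762), Foxa3 at 0.59 (BeadChip value 0.56, adjusted p = 0.0544), the bile acid receptor Nr1h4 at 0.54 (BeadChip value 0.18, adjusted p = 0.517) and Esrra at 0.40 (BeadChip value 0.36, adjusted p = 0.172). Hnf4a was also at 0.27 (adjusted p = 0.158), and Esrra at 0.30 (adjusted p = 0.0835), with arrays scaled to the median of all probes. The Ppara probe did not pass the detection filter.

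Complement and coagulation had 11 of 24 higher and 1 lower (median 0.29, or 0.20 with bounds). The complement inhibitor Cfi read 9.94 to 10.28 with PBS and 11.32 to 11.54 at 2 mM (1.31 ± 0.08, 2.48-fold), and the anticoagulants Pros1 (0.99) and Proc (0.66) rose with it. Masp1, a protease of the lectin pathway, rose by 0.74 on its brightest probe and was lower on the other (−0.26). Acute-phase proteins had 7 of 14 higher and 0 lower (median 0.23, or 0.12 with bounds). Lcn2, which binds bacterial iron carriers, rose 2.62-fold (1.39 ± 0.10) and the hemoglobin carrier Hp 2.26-fold (1.17 ± 0.12). Serum amyloid Saa3 was at 0.84 (BeadChip value 0.33, adjusted p = 0.401) and Apcs at 1.00 (BeadChip value 0.92, adjusted p = 0.123).

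Cytokine, chemokine and NF-kB genes went the other way, with 20 of 34 measured (46 listed) lower and 5 higher and a median of −0.38, or −0.34 with bounds. Nfkb2, a subunit of NF-kB, read 9.75, 9.8, 9.63, 9.94 and 9.5 with PBS and 8.83, 8.64, 8.54, 8.98 and 8.92 at 2 mM. No array overlapped (−0.94 ± 0.10, adjusted p = 8.16e-07). Cxcl10, a chemokine of T cells, read 5.64 to 6.14 with PBS and was detected on 3 of 5 arrays at 2 mM. The growth factor Csf1 was at −0.87 (BeadChip value −0.34, adjusted p = 0.256). The higher genes, named for the count after their values were seen, were Il18, Il11, Ccl25, Cxcl15 and Nfkbiz. Interferon-stimulated genes had 11 of 27 higher and 4 lower. Usp18, a protease that removes the ubiquitin-like ISG15, was at least 1.93-fold higher on 1 probe and at 0.03 on another, Lgals3bp rose by 0.46, Ifit3 was at 0.52 (BeadChip value 0.56, adjusted p = 0.0682), and the immunoproteasome subunit Psmb10 fell by 0.83.

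Detoxification genes rose widely. Of 23 measured glutathione S-transferases (26 listed) 17 were higher and 1 lower, with a median of 0.97, or 0.67 with the BeadChip term. After Gsta4 and Gstt1 came Gstm2 (1.34 ± 0.08, with PBS arrays at 8.82 to 9.01 and 2 mM arrays at 10.19 to 10.3) and Gstt3 (1.29 ± 0.08). The lower gene was Gstcd (−0.34), named for the count after its value was seen. Gstm genes are near-identical copies, so their separate values are uncertain. Aldehyde dehydrogenases had 6 of 12 higher and 2 lower, with Aldh3b1 up by 0.89 and Aldh5a1 at 0.56 (BeadChip value 0.30, adjusted p = 0.22). Cytochrome P450s had 13 of 24 measured (86 listed) higher and 2 lower (median 0.38, or 0.28 with bounds), led by Cyp4a12a, Cyp2c67 and Cyp2d22 (1.62, or 0.25 on its other probe). Glucuronosyltransferases and sulfotransferases had 9 of 15 higher and 1 lower (median 0.44, or 0.34 with bounds), among them Ugt2b36 (1.83, detected on 2 PBS arrays), Ugt1a10 (1.77), Ugt1a6b (1.58) and Ugt1a6a (1.54). Ugt1a isoforms share exons, and the 4 probes of Ugt1a10 ran from 0.39 to 1.77.

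The NRF2 targets did not move as 1 group, with 8 of 25 higher and 8 lower and a median of −0.01. Ephx1, the microsomal epoxide hydrolase, read 10.33, 10.34, 10.34, 10.36 and 10.24 with PBS and 11.92, 11.87, 11.75, 11.82 and 11.93 at 2 mM, a rise of 2.90-fold (1.54 ± 0.06, adjusted p = 9.64e-13). Sulfiredoxin Srxn1 rose by 0.62 on 1 of 3 probes, the lowest being at 0.02, and Keap1, which marks NRF2 for degradation, fell by 0.54. Nfe2l2, which encodes NRF2, was at 0.32 (BeadChip value −0.04, adjusted p = 0.926).

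**Figure D3:**
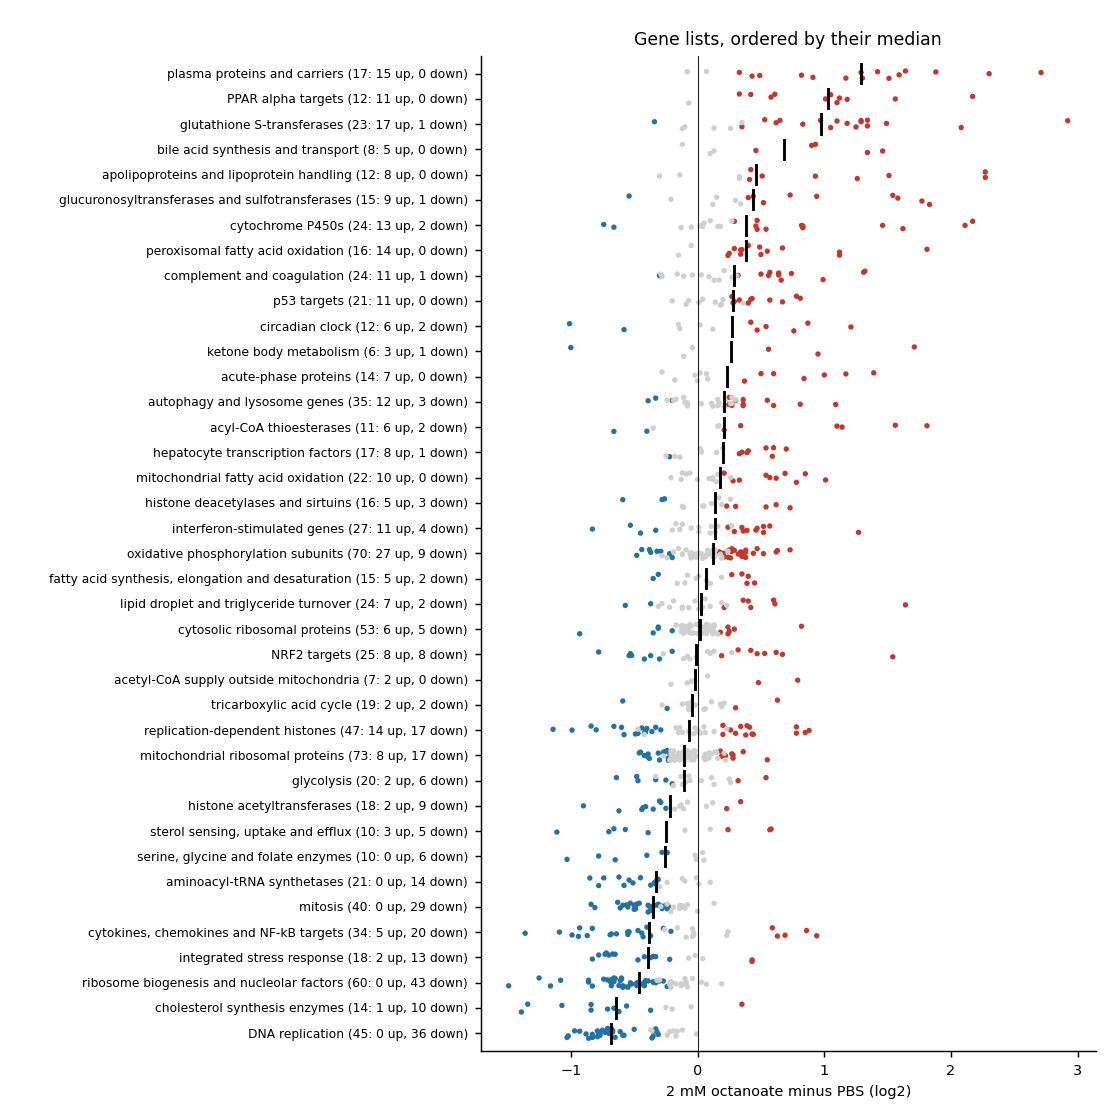
Differences between 2 mM octanoate and PBS (log2) for each measured gene of 39 lists, with red for called higher, blue for called lower, grey for not called and a black bar for the median. Labels give the measured members and how many were called up or down, and medians run from 1.29 for plasma proteins and carriers to −0.68 for DNA replication.

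Most measured genes of the integrated stress response, which rise when amino acids are short, fell. Of 18 measured (20 listed) 13 were lower and 2 higher, Sesn2 and Stc2, named for the count after their values were seen, with a median of −0.39. Asparagine synthetase Asns read 12.55, 12.64, 12.51, 12.55 and 12.48 with PBS and 11.69, 11.84, 11.91, 11.86 and 11.92 at 2 mM (−0.70 ± 0.06, adjusted p = 5.77e-08), with no overlap. The translation inhibitor Eif4ebp1 fell by 0.72 and the pseudokinase Trib3 by 0.78. Atf4, the transcription factor of this response, fell by 0.67 (SE 0.09; BeadChip value −0.55, adjusted p = 0.0741). Serine, glycine and folate enzymes had 6 of 10 lower and 0 higher, with the mitochondrial enzymes Shmt2 (−1.03) and Mthfd2 (−0.78) lowest and Psat1 of serine synthesis at −0.40. Aminoacyl-tRNA synthetases had 14 of 21 lower and 0 higher (median −0.33), led by Vars (−0.85 ± 0.07), Mars1 (−0.74) and Aars (−0.62, or −0.29 and not called on its other probe). Among amino acid transporters 4 of 17 were higher and 2 lower. Slc7a7, which exports cationic amino acids, rose by 1.04 and the glutamine carrier Slc38a3 was at least 1.33-fold higher (BeadChip value 0.70, adjusted p = 0.0501).

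Most ribosome biogenesis genes fell, with 43 of 60 measured genes (70 listed) lower and 0 higher and a median of −0.46. Mybbp1a read 11.46 to 11.69 with PBS and 10.27 to 10.55 at 2 mM, Rrp9 fell by 1.08, and Gar1, which guides pseudouridine formation, by 0.86 ± 0.07. The structural genes of the ribosome differed from this. Cytosolic ribosomal proteins had 6 of 53 higher and 5 lower with a median of 0.02. Rpl22 rose by 0.82 and Rpl14 fell by 0.93. Mitochondrial ribosomal proteins had 17 of 73 lower and 8 higher (median −0.11). Proteasome subunits had 9 of 40 lower and 6 higher, endoplasmic reticulum chaperones 5 of 19 lower and 1 higher, and heat shock genes 3 of 19 lower and 1 higher, with Zfand2a the lowest. Autophagy and lysosome genes had 12 of 35 higher and 3 lower (median 0.21), among them the protease Ctsh (1.09 ± 0.08), the autophagosome protein Gabarapl1 (0.81) and the galactosidase Glb1 (0.55, or 0.24 and not called over a mean of its probes).

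DNA replication had the lowest median of all lists, −0.68, with 36 of 45 measured genes (48 listed) lower and 0 higher. Pold1, the catalytic subunit of DNA polymerase delta, read 10.97, 10.97, 11.06, 11.09 and 10.91 with PBS and 10.06, 9.94, 10.15, 9.9 and 9.81 at 2 mM. All 2 mM arrays were lower, and the fall was 2.04-fold (−1.03 ± 0.07, adjusted p = 2.71e-09). Timeless (−1.02 ± 0.09, or −0.28 and not called on its other probe), which steadies replication forks, and the helicase loading and helicase genes Mcm10 (−0.75) and Mcm5 (−0.77) fell too. Mitosis had 29 of 40 lower and 0 higher with a smaller median of −0.35. Cdca8 of the chromosomal passenger complex fell by 0.59. Anln (−0.61, BeadChip value −0.55, adjusted p = 0.0646), the kinesin Kif22 (−0.50, BeadChip value −0.34, adjusted p = 0.188) and the anaphase activator Cdc20 (−0.56, BeadChip value −0.31, adjusted p = 0.319) lost their calls with the BeadChip term.

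For these lists the 200 bases before the start are shown for the 2 genes of each with the smallest adjusted p among those that hold the motif there. E2F factors, which drive replication genes, bind the core TTTNNCGC, and the cell cycle homology region TTTGAA marks promoters of mitotic genes. Capitals mark matches on either strand.
Mcm5, chr8:75109309-75109508, plus strand: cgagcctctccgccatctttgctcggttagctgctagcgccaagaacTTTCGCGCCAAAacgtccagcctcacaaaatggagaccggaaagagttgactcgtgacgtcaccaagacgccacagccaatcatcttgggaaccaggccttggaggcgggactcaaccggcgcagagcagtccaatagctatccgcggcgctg
Mcm7, chr5:138171884-138172083, minus strand: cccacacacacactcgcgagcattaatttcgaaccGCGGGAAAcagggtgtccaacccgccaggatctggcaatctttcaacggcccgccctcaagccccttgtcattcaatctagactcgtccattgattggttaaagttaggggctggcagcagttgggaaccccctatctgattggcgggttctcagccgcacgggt
Kif22, chr7:127042421-127042620, minus strand: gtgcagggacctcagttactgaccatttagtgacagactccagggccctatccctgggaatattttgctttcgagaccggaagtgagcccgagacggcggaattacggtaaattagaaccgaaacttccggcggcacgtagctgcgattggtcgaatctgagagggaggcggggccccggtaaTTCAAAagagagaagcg
Cdc20, chr4:118437344-118437543, minus strand: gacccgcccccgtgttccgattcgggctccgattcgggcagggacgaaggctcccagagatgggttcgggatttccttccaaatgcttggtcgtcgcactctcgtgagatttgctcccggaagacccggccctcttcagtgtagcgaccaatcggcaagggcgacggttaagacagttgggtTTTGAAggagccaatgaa
In Mcm5 a match on each strand overlaps to form 1 run. The E2F core was in 12 of 35 replication promoters (34.3%), against 5.93% of all, and the cell cycle homology region in 25 of 33 mitosis promoters (75.8%), against 20.2%. Mcm7, a helicase subunit, was at −0.79 and was chosen for its motif.

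G1 cyclins, their kinases and inhibitors, which set entry into replication, moved in both directions, with 7 of 27 higher and 9 lower. Cyclin Ccnd2 rose 2.27-fold (9.48 ± 0.09 to 10.66 ± 0.10, adjusted p = 4.84e-09) and Mxd4, which opposes MYC, by 0.60. Myc was at −0.56 (BeadChip value −0.44, adjusted p = 0.158), and Ccne2 at −0.71 (BeadChip value −0.55, adjusted p = 0.191). Ccnd1 read 13.79 to 14.06 with PBS and 14.07 to 14.15 at 2 mM (0.21 ± 0.07, adjusted p = 0.0169), and lost its call with the BeadChip term (0.07, adjusted p = 0.82), with a replicate block (0.21, adjusted p = 0.074), with arrays scaled to their medians (0.15, adjusted p = 0.137) and over a mean of its probes (0.14, adjusted p = 0.0611). The p53 targets had 11 of 21 higher and 0 lower (median 0.28), with Zmat3 up by 0.81, the death receptor Fas by 0.78 (2 of its 4 probes called, the lowest at 0.07) and Trp53inp1 by 0.67. Cdkn1a, the cell cycle inhibitor of that list, was at 0.20 ± 0.08 (adjusted p = 0.0608) on its brightest probe, while 2 of its 3 probes were called higher, up to 0.62. Over a mean of its probes Cdkn1a was called (0.39, adjusted p = 4.38e-05), and with the BeadChip term it was at −0.04 (adjusted p = 0.909).

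Replication-dependent histone genes moved in both directions, with 14 of 47 higher and 17 lower. H1f2, a linker histone, rose from 11.11 ± 0.07 to 11.98 ± 0.09 (0.88 ± 0.07, adjusted p = 3.58e-09), and H2ac18 by 0.85 and H2ac19 by 0.78. H2ac21 read 10.93, 10.73, 10.83, 10.93 and 10.58 with PBS and 9.58, 9.58, 9.86, 9.6 and 9.64 at 2 mM, a fall of 2.21-fold (−1.14 ± 0.10). These genes share near-identical coding sequence, so which copy a probe read is uncertain. Among histone variants 3 of 9 were higher and 3 lower, with H2az1 at −0.44 (BeadChip value −0.41, adjusted p = 0.166) and H3f3a at 0.40 on 1 probe and −0.42 on the other, both called. The former lost its call with the BeadChip term (BeadChip value 0.60, adjusted p = 0.0639).

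Enzymes that acetylate histones, the subject of the series, had 9 of 18 lower and 2 higher with a median of −0.22, but −0.04 with the BeadChip term. Trrap, a scaffold of 2 acetyltransferase complexes, read 8.55, 8.74, 8.8, 8.8 and 9.13 with PBS and 7.82, 7.9, 8.04, 7.86 and 7.91 at 2 mM, with no overlap (−0.90 ± 0.10, adjusted p = 9.67e-07). Hat1, which acetylates new histone H4, fell by 0.41. Kat2a was at −0.30 (BeadChip value −0.45, adjusted p = 0.151), and also at −0.35 (adjusted p = 0.0594) with arrays scaled to the median of all probes. Ep300 was at −0.18 ± 0.09 (adjusted p = 0.141), with the groups overlapping. Elp3 was at 0.34 (BeadChip value 0.25, adjusted p = 0.352). Deacetylases and sirtuins had 5 of 16 higher and 3 lower. Hdac8 was at 0.73 (BeadChip value 0.63, adjusted p = 0.084), Hdac11 at 0.62 (BeadChip value 0.84, adjusted p = 0.067), Hdac10 at −0.59 (BeadChip value −0.65, adjusted p = 0.128) and Sirt4 at 0.54 (BeadChip value 0.14, adjusted p = 0.757). Methylation enzymes and readers had 13 of 38 lower and 2 higher. The histone H4 methyltransferase Kmt5a fell by 0.62 (3 of its 4 probes called, the highest at −0.15), and the maintenance DNA methyltransferase Dnmt1 was at −0.72 (BeadChip value −0.55, adjusted p = 0.135). The mRNA levels say nothing of the acetyl marks themselves, which were not measured here.

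Clock genes had 6 of 12 higher and 2 lower. Per2, a repressor of the clock, read 7.11 to 7.33 with PBS and 8.26 to 8.57 at 2 mM (1.21 ± 0.07, 2.32-fold), and the nuclear receptor Rora rose by 0.76. Bhlhe40, another repressor, fell 2.02-fold (11.47 ± 0.09 to 10.46 ± 0.10). Immediate early genes had 5 of 20 higher and 3 lower. Egr1 read 9.83, 9.71, 9.88, 9.9 and 9.69 with PBS and 11.21, 11.29, 11.32, 11.36 and 10.97 at 2 mM, a rise of 2.69-fold (1.43 ± 0.11), with replicate 5 the lowest treated array yet above all PBS arrays. The matricellular Ccn2 rose by 0.59 and Maff fell by 0.71. Of growth factor genes Errfi1, a feedback inhibitor of the EGF receptor, rose by 0.60. Egfr was at 0.02 ± 0.09 (adjusted p = 0.89) on its brightest probe, but 2 of its 5 probes were called higher, up to 0.39, and a mean of its probes was called (0.17, adjusted p = 0.0455). Tgfa, detected on 2 PBS arrays, was at 0.29 ± 0.15 (adjusted p = 0.131) and Met at −0.59 (BeadChip value −0.11, adjusted p = 0.805).

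Wnt pathway genes had 8 of 24 higher and 5 lower, with the ligands Wnt7a (−1.39) and Wnt10a (−0.49 ± 0.06) lower and the transcription factor Tcf7l1 higher (0.76). Matrix genes had 16 of 50 higher and 9 lower with a median of 0. Loxl4 read 10.16 to 10.41 with PBS and 9.03 to 9.14 at 2 mM. The integrin Itgb1 was at −0.92 on its brightest probe and −0.31 on the other. Fibronectin Fn1 rose by 0.73 on its brightest probe, with a further probe at −0.10. Sprr2g, a cornified envelope protein of squamous epithelia, rose 2.81-fold (1.49 ± 0.12) and S100a1 by 0.80. Of iron genes, Hfe was at 1.10 (BeadChip value 0.74, adjusted p = 0.0839), the hepatocyte transferrin receptor Tfr2 rose by 0.94 (0.30 and not called on its other probe), and Tfrc, the receptor of dividing cells, fell by 0.48. As housekeeping genes, Actb was at −0.01 ± 0.07 (adjusted p = 0.932), with 1 of its 5 probes called lower (−0.35), and Gapdh at −0.20 ± 0.06 (adjusted p = 0.014). Gapdh lost its call with the BeadChip term (−0.30, adjusted p = 0.171), with arrays scaled to the median of all probes (−0.30, adjusted p = 0.0774) and with a replicate block (−0.20, adjusted p = 0.0637).

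The place of 2 mM between the neighbouring doses was described by 2 more tests, which share the 2 mM arrays with the comparison above. Dose ran largely with BeadChip, with PBS on BeadChip 1 only and 5 mM on BeadChip 3 only. Apart from the link through 1 mM replicate 1, effects of dose and of BeadChip between PBS and 5 mM cannot be told apart. Between 2 mM and 1 mM 631 genes were called (5.95%), and between 5 mM and 2 mM 3551 (33.5%). The former count was 250 when 3 arrays were left out, 2 mM replicate 5 and replicates 1 and 4 of 1 mM, a test on fewer arrays with less power. On the third principal component those 1 mM arrays lay at 12.9 and −29.2, away from the other 1 mM arrays at −2.03 and −2.05, while 2 mM replicate 5 lay at 7.43, within the range of its group (1.91 to 8.3). In the order PBS, 1, 2 and 5 mM, Gsta4 stood at 6.23, 8.14, 9.15 and 10.41, and the steps from 1 to 2 mM (adjusted p = 6.36e-06) and from 2 to 5 mM (adjusted p = 1.52e-09) were called. Pdk4 stood at 5.14, 5.36, 6.32 and 8.38, so its step from 1 to 2 mM (0.97, adjusted p = 0.000147) was larger than that from PBS to 1 mM. Pold1 went down with each dose, from 11 to 10.44, 9.97 and 8.4. Cdc20 stood at 11.1, 10.76 and 10.54 up to 2 mM and at 7.56 at 5 mM (5 mM minus 2 mM −2.98, adjusted p = 7.28e-15).

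Some genes called at 2 mM were called in the opposite direction between 5 mM and 2 mM. The tests share the 2 mM arrays, so values are given side by side. Lcn2 read 8.11 to 8.56 with PBS, 9.46 to 9.68 at 1 mM, 9.49 to 9.78 at 2 mM and 5.78 to 6.27 at 5 mM, so the highest dose lay under the control (5 mM minus 2 mM −3.70, adjusted p = 3.53e-15). Saa3 stood at 8.54, 9.64, 9.38 and 5.47 in the same order, and Hp at 6.59, 7.38, 7.76 and 5.94. Syt1, a calcium sensor of vesicles, stood at 5.97, 6.59, 6.85 and 5.92 (its other probe was at 0.18 for 2 mM minus PBS and not called), and Apcs at 5.34, 6.23, 6.35 and 5.62. In the other direction Trib3 stood at 8.63, 8.1, 7.85 and 9.03 (5 mM minus 2 mM 1.18, adjusted p = 9.31e-08), and Wnt7b at 10.84, 10.37, 10.21 and 10.79, though its fall at 2 mM lost its call with the BeadChip term (−0.35, adjusted p = 0.236). The same term ended the calls at 2 mM of Cth (−0.83, BeadChip value −0.42, adjusted p = 0.484), Lhx5 (−0.56, BeadChip value −0.23, adjusted p = 0.65) and Recql (−0.76, BeadChip value 0.02, adjusted p = 0.981). It also ended those of Saa3 (BeadChip value 0.33, adjusted p = 0.401) and Apcs (BeadChip value 0.92, adjusted p = 0.123).

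**Figure D4:**
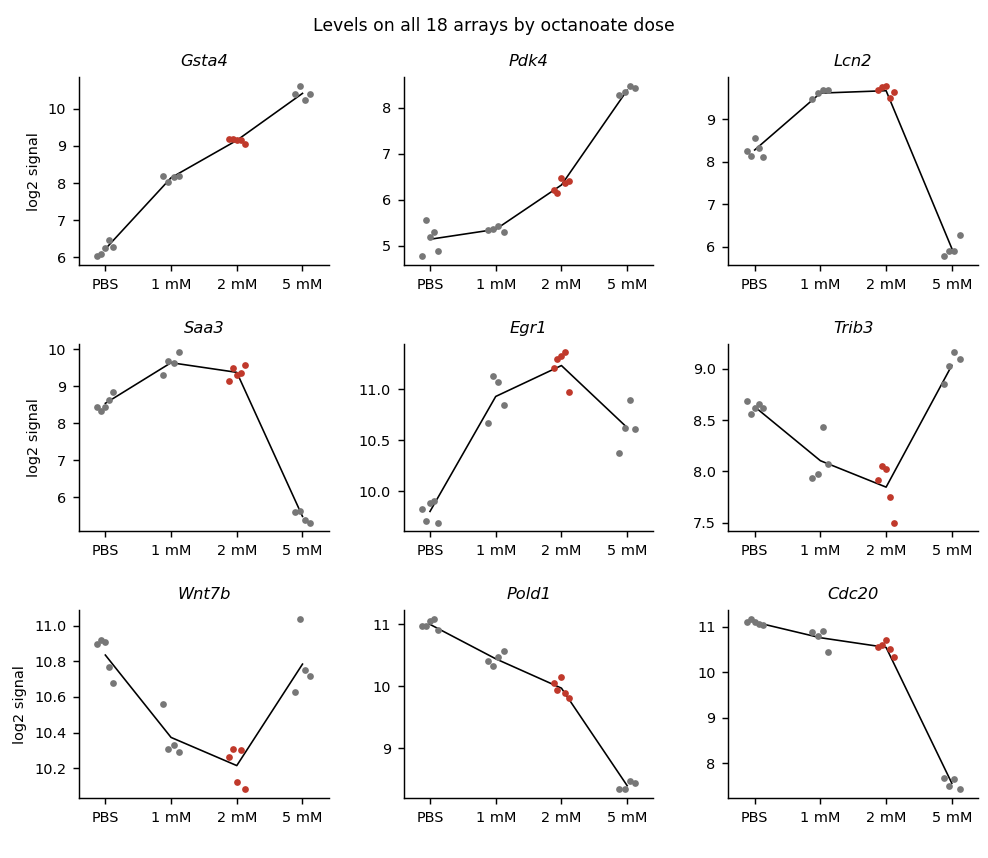
Level of 9 genes (log2 signal) on all 18 arrays by octanoate dose, with red points for the 5 arrays at 2 mM and a line through the group means. Gsta4 is higher and Pold1 lower at each dose, while Lcn2 and Saa3 are highest at the middle doses and lowest at 5 mM. Pdk4 is higher at 2 and 5 mM, and its 1 mM arrays (5.29 to 5.42) lie within the PBS range (4.77 to 5.56). PBS and 5 mM arrays share no BeadChip.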

How the data were processed

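The deposited table of non-normalized values holds, per the file headers, a probe intensity and a detection p-value for each of the 18 arrays. The authors' processed table holds log2 values made with lumi, per the submitters' processing notes, with no version stated. It served as an alternative only, and the low end of its scale is unknown. Depth has no meaning for arrays, and precision rests on the number of arrays.

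Intensities were background-corrected with normexp using the detection p-values, given an offset of 16, quantile normalized and put on the log2 scale (neqc of limma 3.58.1, R 4.3.3). A probe was kept where its detection p-value was below 0.05 on 4 or more of the 18 arrays. A linear model with a mean per group was fitted over all 18 arrays with lmFit and eBayes, and p-values were Benjamini-Hochberg adjusted over 20536 probes. Quantile normalization assumes that the groups share a distribution of signals.

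Groups came from the treatment in the labels. Same-numbered arrays did not deviate together (correlations −0.04 to 0.029), so no pairing was used. Named genes were the 25 largest rises and 25 largest falls among called genes whose arrays do not overlap, up to 4 members of each list with the smallest adjusted p, up to 6 genes in each direction detected on all arrays of 1 group and none of the other, up to 5 in each direction called the opposite way between 5 and 2 mM, and 30 genes given whatever their result. Not all of them are printed. The members and lists were chosen with earlier results of these data known. Alternatives covered background correction, offset, scaling, filter, the processed table, BeadChip, replicate block and each replicate left out. Some genes of the rule are not reported here.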

Additional observations from a re-analysis of the deposited data

Results flagged for a closer look

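In 450 groups of 5 arrays, PBS and 2 mM for each of 224 named genes and for the number of detected probes, 22 groups (4.89%) had 1 array far from the other 4, with a gap above Dixon's critical value of 0.71 of the range. Chance flags about 1 in 20 groups.

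In genes of detoxification, secretion and ribosome assembly, 2 mM replicate 5 was low for Gsta4 (9.05, others 9.15 to 9.19) and Masp1 (11.5, others 11.63 to 11.68) and high for Gstt1 (9.39, others 9.01 to 9.08). PBS replicate 4 was low for Fcgrt (6.4, others 6.55 to 6.59) and high for Tcof1 (10.5, others 10.42 to 10.44). PBS replicate 1 was high for Prodh2 (5.56, others 5.34 to 5.38), PBS replicate 3 was low for Serpina1d (6.69, others 7 to 7.12) and Keap1 (9.59, others 9.69 to 9.72), and 2 mM replicate 4 was high for Nfe2l2 (9.27, others 9.07 to 9.13) and Prrg3 (5.51, others 4.61 to 4.79).

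In lipid, sterol and carbon genes, PBS replicate 3 was low for Insig1 (8.03, others 8.45 to 8.57) and Acaa2 (8.27, others 8.49 to 8.56). PBS replicate 5 was high for Bdh1 (4.94, others 4.49 to 4.61) and Idh1 (10.05, others 9.64 to 9.75), and PBS replicate 2 for Slc25a1 (9.34, others 8.79 to 8.92). At 2 mM, replicate 3 was low for Bdh2 (8.49, others 8.65 to 8.69) and replicate 1 for Tmem97 (9.05, others 9.45 to 9.61).

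Among the remaining genes, 2 mM replicate 3 was high for H2ac21 (9.86, others 9.58 to 9.64) and Actb (14.53, others 14.37 to 14.41), and 2 mM replicate 4 for H3f3a (12.44, others 12.21 to 12.26). PBS replicate 1 was high for Hdac8 (6.09, others 5.71 to 5.79), and PBS replicate 4 was low for Tfrc (10.96, others 11.17 to 11.24).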

How the results depend on the processing

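The count of 7615 called probes ran from 6927 to 7304 with each array left out, and was 7020 with a replicate block. With the median over all probes as the scaling, chosen after seeing the data, 2229 probes were higher, or 42.2% of calls against 49.2%. The counts at least 2-fold higher and lower were 78 and 11 with no background correction, 144 and 26 with an offset of 50, and 46 and 7 in the authors' value table, whose fold changes are compressed. With BeadChip as a term 2134 probes were called, 1245 higher and 889 lower. Of these, 416 were at least 2-fold higher and 192 at least 2-fold lower, against 294 and 66 without the term. Over the 7615 probes the median ratio of the difference with the term to that without it was 0.97. With the 2 mM arrays of BeadChip 3 only, 5003 were called, 2385 lower, from fewer arrays. For 2 against 1 mM the 631 genes became 1038 with no background correction and 258 with the BeadChip term. From fewer arrays, they became 250 without 3 arrays (1 mM replicates 1 and 4 and 2 mM replicate 5). They became 315 and 200 with the 2 mM arrays of BeadChip 2 or 3 only, also from fewer arrays. For 5 against 2 mM the 3551 genes became 2671 with the BeadChip term.

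With the BeadChip term 53 of 224 named genes lost their call, and the sign turned for Slc27a1 (−0.42), Slc16a6 (−0.26), Fads3 (0), Recql (0.02), Slc25a1 (−0.08), Cdkn1a (−0.04), Nfe2l2 (−0.04), Actb (0.16) and Ep300 (0.08), and for the medians of fatty acid synthesis (−0.03), amino acid transporters (−0.10) and histone variants (0.01). With median scaling it turned for Egfr (−0.02), cytosolic ribosomal proteins (−0.02) and histone variants (0.01), and with all probes for Egfr (−0.08) and cytosolic ribosomal proteins (−0.08). Over a mean of probes it turned for Acsm3 (0.06), H3f3a (−0.01) and amino acid transporters (−0.01). Actb was at 0.03 in the authors' table and 0.01 with BeadChip 2 only, Egfr at −0.05 with BeadChip 3 only, and the Wnt median at −0.03 over probes detected on all 10 arrays. Without the 3 arrays Acsm3 was at 0.03, and Acly, Actb and the amino acid transporter median at 0. With single arrays left out, values ran for Actb from −0.04 to 0.01, Egfr from −0.02 to 0.09, Acsm3 from −0.36 to 0.03, Acly from −0.12 to 0, the amino acid transporter median from −0.02 to 0.06 and the tricarboxylic acid cycle median from −0.06 to 0.01. The cause of these changes was not tested. With probes in 4 equal groups by brightness, 14.7% of the dimmest were called, with a median absolute difference of 0.15, against 47.7% and 0.2 for the brightest.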
